A study of Mus musculus with 8 samples.

Results

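The 10 genes that mark the cells of brain blood vessels are described here in RNA bound to tagged ribosomes of mouse hippocampus. They are the endothelial markers Pecam1, Cldn5, Flt1, Kdr, Tek, Itm2a and Slco1a4 and the pericyte markers Pdgfrb, Rgs5 and Vtn. Members were found by gene name among the probes that are not controls, which gave 12 probes for 10 genes of 55663 probes used. Of these genes 9 were among the 29529 genes tested, and Pdgfrb was not. The samples were 8 arrays, 1 per mouse. The CKO group, 4 mice, carried loxP sites on both copies of Ctcf, and the WT group, 4 mice, was labelled wild type for Ctcf. Both groups carried Camk2a-Cre and the RiboTag allele of Rpl22 on a C57BL/6 background, were naive and untreated, and held 3 males and 1 female each, all at least 3 months old. The series' design text instead calls the controls loxP homozygotes and mentions no Cre for them, and the sample labels were followed.

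CTCF is a DNA-binding protein with a role in genome folding. RiboTag mice make an HA-tagged form of Rpl22, a protein of the large ribosomal subunit, in cells that have expressed Cre, and an anti-HA antibody then recovers the ribosomes of those cells together with their transcripts. Camk2a drives Cre in forebrain excitatory neurons, so vessel cells are not among the cells meant to carry the tag. Transcripts of untagged cells can be carried along in such a pull-down, and no unbound or input RNA was analysed here, so these data do not show how far any marker was depleted or enriched. Endothelial cells line the vessel and form the blood-brain barrier by tight junctions and selective transporters, and they respond to VEGF and angiopoietin through receptor kinases. Pericytes sit on the outer face of capillaries within the basement membrane and are recruited by PDGF-B from the endothelium.

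The arrays carry a single-stranded DNA probe of 60 bases for each transcript. The first 30 bases of 6 probes are printed here from the scanner files, 5′ to 3′, with G and C in capitals, because probes of the same gene gave different values and these probes differ in base composition.
Flt1, brighter probe: tCCCtatCCCaaCtaCaCattCaatCttCt
Flt1, dimmer probe: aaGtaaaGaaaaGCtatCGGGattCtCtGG
Kdr, brighter probe: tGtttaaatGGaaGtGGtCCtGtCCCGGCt
Kdr, dimmer probe: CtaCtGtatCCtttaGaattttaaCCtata
Itm2a: taGatttCtGaaaGCaGCatGaatGtGtCa
Pecam1: CCCCaGaaCatGGatGtaGaataCaCaGaa
Over all 60 bases the GC content was 45% for the brighter and 40% for the dimmer Flt1 probe, 55% for the brighter and 35% for the dimmer Kdr probe, 40% for Itm2a and 50% for Pecam1. The mm9 coordinates of the files place the Flt1 probes on chromosome 5 at 148465976 to 148466035 (brighter) and 148373791 to 148373850 (dimmer), 92185 bases apart. The Kdr probes lie on chromosome 5 at 76330395 to 76330454 (brighter) and 76329309 to 76329368 (dimmer), 1086 bases apart, Itm2a on chromosome X at 104592916 to 104592975 and Pecam1 on chromosome 11 at 106540864 to 106540923. These 6 probes, and that of Slco1a4, are listed on the minus strand, and those of Cldn5, Tek, Pdgfrb and Rgs5 on the plus strand. The remaining probes lie on chromosome 16 at 18778046 to 18778105 (Cldn5), 4 at 94540624 to 94540683 (Tek), 6 at 141754675 to 141754734 (Slco1a4), 18 at 61244606 to 61244665 (Pdgfrb) and 1 at 171623021 to 171623080 (Rgs5). The files give no position for the Vtn probe, whose gene is on chromosome 11. No annotation of mm9 was used, so exon, intron and UTR are not given for any probe.

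Between 72.2% and 81.5% of probes were well above background on an array, with CKO 3 lowest. The arrays lay on 3 slides, each scanned once, so slide and scan cannot be told apart. Slide 1 held WT 1, slide 2 held CKO 1, CKO 2, WT 2 and WT 3, and slide 3 held CKO 3, CKO 4 and WT 4. The arrays of slide 3 stood apart on the first principal component, from 29.6 to 128 against -67.4 to -14.6 for the rest, and CKO 3 stood farthest out. Ctcf, the deleted gene, averaged -2.24 ± 0.29 in CKO and -1.37 ± 0.30 in WT (normalized log2 signal, SD, n = 4 each), with p = 0.0286 in an exact two-sided permutation test, the smallest that this design allows, and a limma adjusted p of 0.724 over all genes. Normalized log2 signal is the log2 intensity minus the array's 75th percentile, so 0 marks that percentile. Of the 12 probes of the members, 11 were well above background on all 8 arrays. The excitatory neuron markers, such as Slc17a7 and Camk2a, were measured for 12 of 12 genes, all well above background on all 8 arrays.

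Of the 9 members tested none differed between CKO and WT past a limma adjusted p of 0.05, as against 0.00339% of all genes tested (1 gene, lower in CKO). Their adjusted p ran from 0.724 to 0.998. At an unadjusted limma p under 0.05, 1 member, Itm2a, was higher in CKO, where 2.5% of all genes were, and 1, Pecam1, was lower, where 2.8% were. Together these were 2 of 9 members, beside 5.3% of all genes in either direction. The median log2 difference (CKO minus WT) of the 7 endothelial members was -0.051 and that of the 2 pericyte members tested was 0.16, beside -0.078 over all genes tested. The endothelial median turned to 0.092 with median scaling, 0.049 with quantile normalization and 0.12 with the authors' values, where the pericyte median was 0.31, 0.36 and 0.41. Of the 9 members 5 had a difference above 0, as had 41.5% of all genes. The values of CKO and WT overlapped for all 12 probes, where 3.32% of all genes tested had groups that did not overlap. In bulk RNA of this kind fewer vessel cells, less RNA per cell and less carry-over into the pull-down cannot be told apart.

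**Figure D1:**
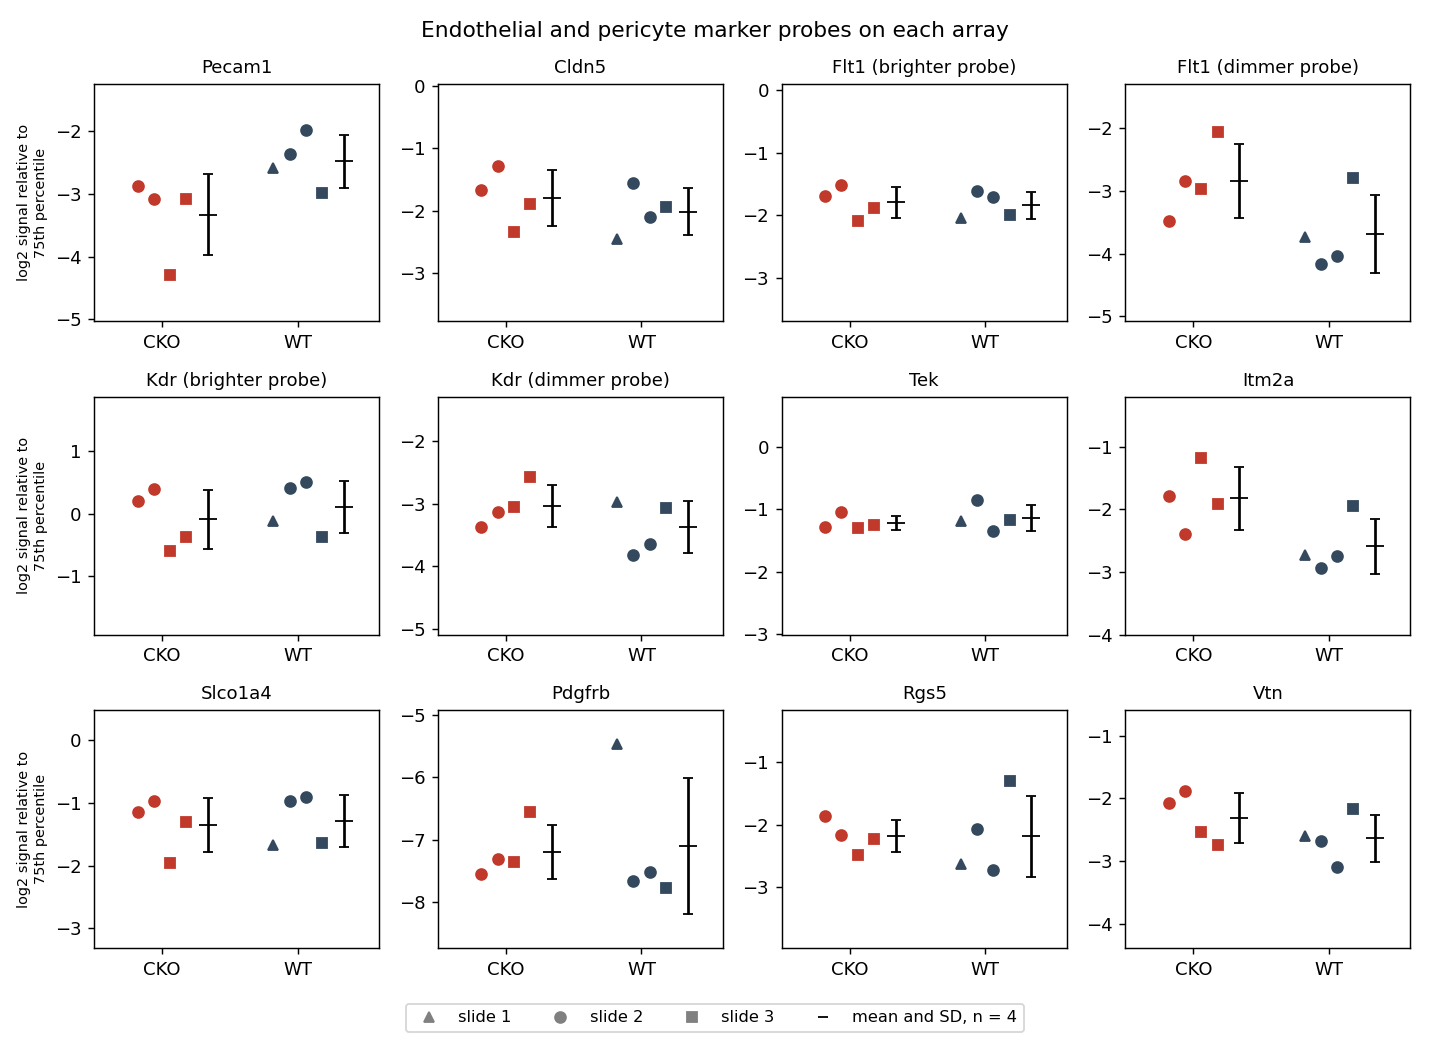
Normalized log2 signal (y axis, log2 intensity relative to the array's 75th percentile) of each of the 12 probes on each array, CKO left and WT right. Each point is 1 mouse, its shape gives the slide, and the bar at the right of each group is the mean with SD (n = 4). Each panel spans the same height on the log2 scale. CKO 3 is lowest for Pecam1 at -4.29, WT 4 is highest for Rgs5 at -1.31, and the Pdgfrb probe was not well above background on any array.

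The adhesion and junction genes gave values on both sides of 0. Pecam1, also known as CD31, is an adhesion molecule of endothelial junctions that platelets and leukocytes carry too. Its normalized log2 signal was -2.86, -3.08, -4.29 and -3.08 in CKO 1 to 4, against -2.59, -2.37, -1.98 and -2.98 in WT 1 to 4. The values of 3 CKO mice lay below every WT mouse, where 6.95% of all genes had at least 3 such mice. CKO 1 lay above WT 4, and CKO 3 was lowest by far. The mean was -3.33 ± 0.65 in CKO and -2.48 ± 0.42 in WT (SD, n = 4 each), which put CKO at 55.5% of the WT signal. The difference was -0.85 on the log2 scale (SE 0.34, limma adjusted p = 0.724). It was -0.80 within slide 2, -0.71 within slide 3, -0.76 with the slide as a block and -0.53 without CKO 3. Its unadjusted limma p was no longer under 0.05 within slide 2, within slide 3 or without CKO 3. The Pecam1 probe is printed on 2 spots, whose SD within an array was at most 0.24.

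Cldn5 encodes claudin 5, the main claudin of the tight junctions of brain endothelium. It had -1.67, -1.28, -2.34 and -1.89 in CKO 1 to 4 and -2.46, -1.56, -2.09 and -1.93 in WT 1 to 4. Only CKO 2 lay above every WT mouse, and the lowest value of all was that of WT 1. The log2 difference was 0.22 (95% interval -0.39 to 0.83, limma adjusted p = 0.770), 0.35 within slide 2 and -0.18 within slide 3, and 0.046 to 0.40 with single arrays left out.

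The receptor kinases for VEGF and angiopoietin differed by less than the spread between mice where their brighter probes were read. Flt1 encodes VEGF receptor 1, which binds VEGF-A tightly and limits its action. The brighter Flt1 probe had -1.70, -1.51, -2.09 and -1.89 in CKO 1 to 4 and -2.05, -1.61, -1.71 and -1.99 in WT 1 to 4. Values of both groups covered almost the same range, and the difference was 0.045 (95% interval -0.38 to 0.47, limma adjusted p = 0.926). With the mean of both Flt1 probes it was 0.45. The brighter and the dimmer probe are annotated to different transcript records, the dimmer one to a RefSeq transcript. Whether both read the same transcript was not tested. The dimmer Flt1 probe had -3.48, -2.84, -2.97 and -2.06 in CKO 1 to 4, against -3.74, -4.18, -4.04 and -2.79 in WT 1 to 4. All CKO values but that of CKO 4 lay below WT 4, and all were above the other WT mice. With each probe tested by itself the dimmer Flt1 probe differed by 0.85 (SE 0.38, limma adjusted p = 0.738).

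Kdr encodes VEGF receptor 2, the main signalling receptor for VEGF-A on endothelium. Its brighter probe had 0.21, 0.39, -0.60 and -0.38 in CKO 1 to 4 and -0.13, 0.41, 0.50 and -0.37 in WT 1 to 4. The arrays of slide 3 were the lowest in both groups, and the difference between genotypes was -0.20 (95% interval -0.85 to 0.45, limma adjusted p = 0.794). The dimmer Kdr probe had -3.37, -3.13, -3.05 and -2.57 in CKO 1 to 4, against -2.97, -3.82, -3.64 and -3.07 in WT 1 to 4. It differed by 0.34 with each probe tested by itself (SE 0.26, limma adjusted p = 0.738), in the opposite direction to the brighter probe. This probe is printed on 10 spots, whose SD within an array ran from 0.079 to 0.40 with a median of 0.15.

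Whether the probes of a gene differed in their genotype difference was tested on the dimmer minus the brighter probe within each array. For Flt1 this value averaged -1.04 ± 0.68 in CKO and -1.84 ± 0.79 in WT (SD, n = 4 each; exact two-sided permutation p = 0.200, adjusted over the 2 genes p = 0.400). For Kdr it averaged -2.94 ± 0.71 in CKO and -3.48 ± 0.82 in WT (SD, n = 4 each; exact two-sided permutation p = 0.400, adjusted over the 2 genes p = 0.400). Neither difference between probes passed the test, at 0.80 for Flt1 and 0.54 for Kdr on the log2 scale. The smallest p that this test allows is 0.0286 before adjustment over the 2 genes, and it takes no account of slide. It therefore cannot show that the probes of a gene gave the same genotype difference.

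Tek encodes Tie2, the endothelial receptor of the angiopoietins. It varied least of all members, with -1.28, -1.05, -1.29 and -1.25 in CKO 1 to 4 and -1.20, -0.86, -1.35 and -1.18 in WT 1 to 4. The CKO values lay inside the range of the WT values. The difference was -0.071 (95% interval -0.44 to 0.30, limma adjusted p = 0.863), and it turned to 0.073 with median scaling and 0.12 with the authors' own values.

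Itm2a, a membrane protein of the BRICHOS family that is abundant in mouse brain endothelium, had the opposite pattern to Pecam1. It had -1.79, -2.40, -1.18 and -1.92 in CKO 1 to 4, against -2.72, -2.93, -2.75 and -1.94 in WT 1 to 4. CKO 1, CKO 3 and CKO 4 lay above every WT mouse, although CKO 4 and WT 4, both of slide 3, were nearly equal. Of all genes 7.81% had at least 3 CKO mice above every WT mouse. The mean was -1.82 ± 0.50 in CKO and -2.59 ± 0.44 in WT (SD, n = 4 each), a 1.70-fold signal. The difference was 0.77 (SE 0.30, limma adjusted p = 0.724), 0.75 within slide 2, 0.40 within slide 3 and 0.61 with the slide as a block.

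Slco1a4 encodes an organic anion transporter (Oatp1a4) of the blood-brain barrier. It had -1.15, -0.97, -1.96 and -1.31 in CKO 1 to 4 and -1.66, -0.97, -0.91 and -1.64 in WT 1 to 4. CKO 3 was the lowest and WT 3 the highest, WT 1 and WT 4 lay below the other CKO mice, and the groups overlapped. The difference was -0.051 (95% interval -0.68 to 0.57, limma adjusted p = 0.943), and it turned to 0.092 with median scaling. Slco1a4 has close paralogs on the same chromosome, and cross-hybridisation was not tested.

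Pdgfrb, the receptor for PDGF-B and a marker of pericytes, was not well above background on any of the 4 CKO or 4 WT arrays. Its measured values were -7.55, -7.31, -7.35 and -6.56 in CKO 1 to 4 and -5.47, -7.65, -7.52 and -7.77 in WT 1 to 4. The lowest signal that was well above background on an array lay between -6.22 and -5.17, so all values but that of WT 1 lay below that range. No fold is given. The pericyte label of the group therefore rests on Rgs5 and Vtn in these arrays.

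Rgs5, a GTPase-activating protein for G protein alpha subunits, is a marker of brain pericytes. It had -1.86, -2.16, -2.48 and -2.23 in CKO 1 to 4 and -2.63, -2.07, -2.73 and -1.31 in WT 1 to 4. The WT mice held both the highest and the lowest value, and their SD was 0.65 against 0.26 in CKO. The difference was 0.0023 (95% interval -0.71 to 0.71, limma adjusted p = 0.998).

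Vtn encodes vitronectin, a matrix glycoprotein that pericytes secrete and integrins bind. Its 10-spot probe had -2.08, -1.89, -2.53 and -2.75 in CKO 1 to 4, against -2.60, -2.68, -3.10 and -2.17 in WT 1 to 4. CKO 1 and CKO 2 lay above every WT mouse, and CKO 3 and CKO 4 lay below WT 4. The mean was -2.31 ± 0.40 in CKO and -2.64 ± 0.38 in WT (SD, n = 4 each), with a difference of 0.33 (SE 0.26, limma adjusted p = 0.725). The SD of its 10 spots within an array had a median of 0.13, which is smaller than the spread between mice.

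Both pericyte genes differed in opposite directions on the slides that hold both genotypes. Vtn differed by 0.91 within slide 2 and by -0.47 within slide 3, and Rgs5 by 0.39 and -1.05. Slide 3 holds WT 4 as its only WT array, so the spread there was that of all arrays within their genotype and slide, and WT 4 was assumed to vary like the others. The difference between the slides, tested in the same fit after these values had been seen, was -1.37 (SE 0.36, limma adjusted p = 1.000) for Vtn and -1.44 (SE 0.45, limma adjusted p = 1.000) for Rgs5. The unadjusted limma p was 0.00927 for Vtn and 0.0190 for Rgs5, and 1.87% of all genes had an unadjusted p under 0.05 in that test. For the endothelial members the same difference between the slides ran from -0.54 (Cldn5) to 0.14 (Slco1a4).

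**Figure D2:**
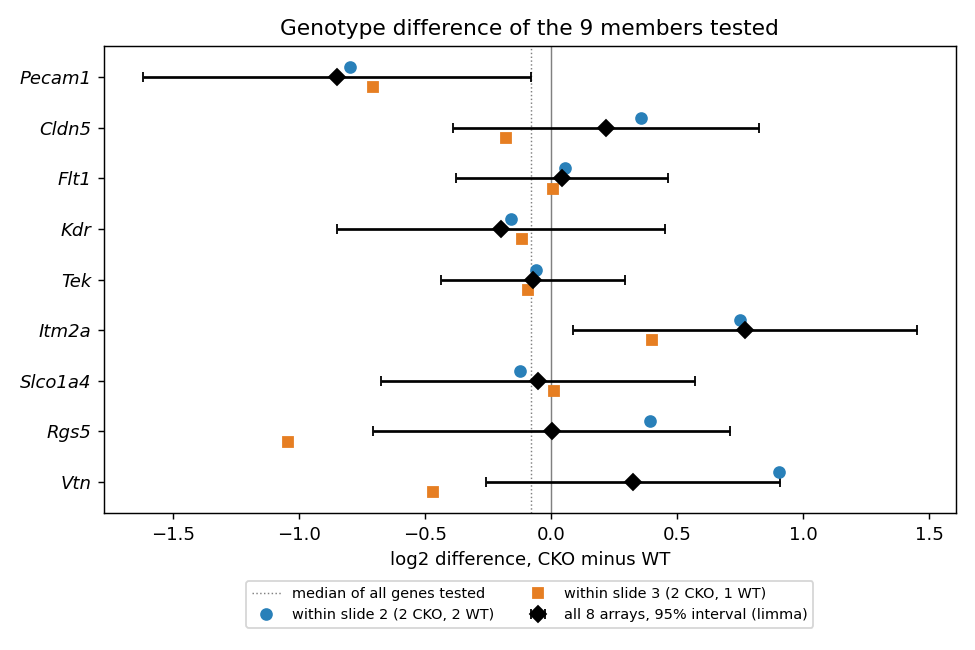
Log2 difference, CKO minus WT (x axis), of the 9 members tested (y axis). Black diamonds with bars are the limma estimates over all 8 arrays with their 95% intervals, blue circles and orange squares are the differences within slide 2 and within slide 3, and the dotted line is the median of all genes tested, -0.078. The interval of Pecam1 lies below 0 and that of Itm2a above 0 before adjustment, and the within-slide values of Vtn and Rgs5 lie on opposite sides of 0.

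By array, the lowest values of the members fell on all 3 slides and the highest on slides 2 and 3. Of the 11 probes past the filter, CKO 3 was the lowest of all arrays for 4 (Pecam1, Slco1a4 and the brighter probes of Flt1 and Kdr), and the highest for Itm2a. CKO 4 was the highest for both dimmer probes, of Flt1 and Kdr. WT 2 was the lowest for Itm2a and both dimmer probes, and WT 3 was the highest for Pecam1, Slco1a4 and the brighter Kdr probe. CKO 2 was the highest for Cldn5, Vtn and the brighter Flt1 probe.

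Slide 3 was also set against slide 2 with genotype in the fit, a comparison chosen after these values had been seen. The brighter Kdr probe differed by -0.80 (SE 0.14, limma adjusted p = 0.0322), the only one of 11 member probes past 0.05, beside 14.3% of all probes tested. Pecam1 differed by -0.75, Slco1a4 by -0.63, Cldn5 by -0.43 and the brighter Flt1 probe by -0.36. The dimmer Flt1 probe differed by 0.91, Itm2a by 0.69 and the dimmer Kdr probe by 0.53, while Rgs5 (0.23), Tek (-0.093) and Vtn (-0.11) differed less. Of the 11 probes 3 were thus lower on slide 3 by over 0.5, as were 29.4% of all probes tested, and 3 were higher by over 0.5, as were 10.4%.

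Base composition moved with these slide differences. The 4 member probes above 0, those of Itm2a and Rgs5 and the dimmer ones of Flt1 and Kdr, had a GC content of 35% to 40%, and the 7 below 0 had 45% to 55%. Over all probes tested the median slide difference was 0.45 for a GC content under 35%, 0.22 from 35% to 40%, -0.11 from 40% to 45%, -0.24 from 45% to 50%, -0.30 from 50% to 55%, -0.30 from 55% to 60% and -0.42 from 60% up. Each class includes its lower bound and not its upper one. Itm2a and the dimmer Flt1 probe, both at 40%, thus fell in the class from 40% to 45%, whose median was -0.11. Both lay above the 75th percentile of that class, 0.28. Rgs5 and the dimmer Kdr probe fell in the class from 35% to 40%. The median genotype difference of all probes tested moved less, with 0.052 under 35%, -0.011 from 35% to 40% and between -0.14 and -0.092 in the higher classes. The part of base composition in the genotype differences of Itm2a, Pecam1, Flt1 and Kdr was not tested.

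**Figure D3:**
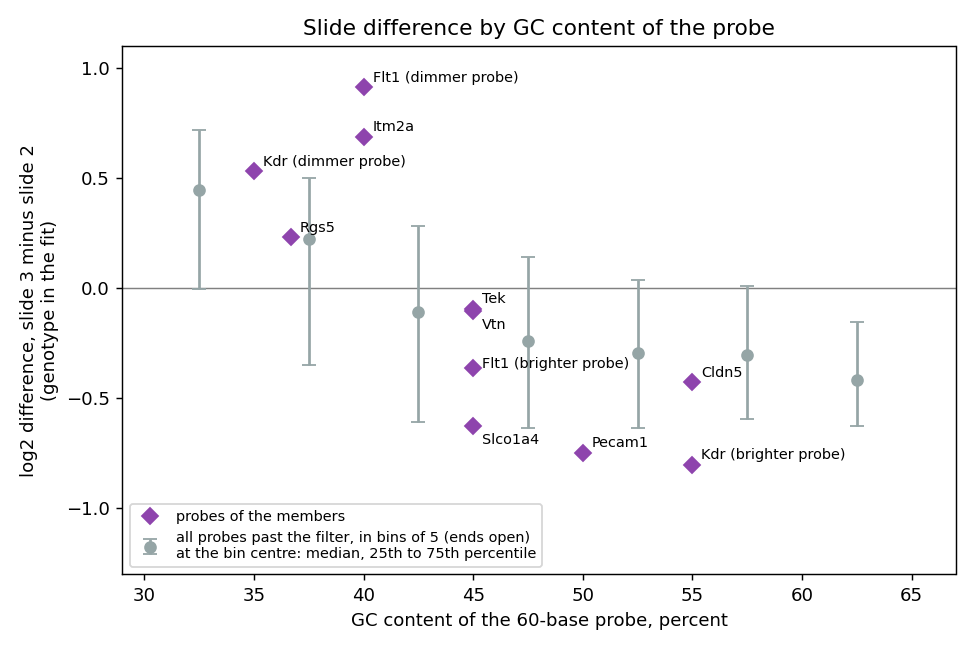
Log2 difference of slide 3 minus slide 2 with genotype in the fit (y axis) against the GC content of the probe in percent (x axis). Grey points with bars are the median and the 25th to 75th percentile of all probes past the filter in each class of GC content, and purple diamonds are the 11 member probes. The dimmer Flt1 and Kdr probes and Itm2a lie above 0 and the brighter Kdr probe, Pecam1 and Slco1a4 lie below -0.6.

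Further genes, of the vessel and of neurons, glia and blood, were read from lists of markers, pathway partners and paralogs. The 16 lists held 197 genes, of which 172 were tested, and none passed a limma adjusted p of 0.05 (smallest 0.724). At an unadjusted p under 0.05, 10 were higher and 2 lower in CKO, beside 2.5% higher and 2.8% lower among all genes tested. Of the higher genes, astrocyte, oligodendrocyte, microglia and paralog lists held 2 each, and interneuron and basement membrane lists 1 each. The lists of VEGF and angiopoietin signalling and of basement membrane held 1 lower gene each. The median log2 difference of the 172 genes was 0.016. Of 25 other endothelial markers 21 were tested, with 0 higher and 0 lower at that p and a median of 0.0011, which was 0.14 with median scaling and -0.088 within slide 3. Ablim3, an actin-binding protein, differed by 0.30 and Egfl7, a secreted endothelial factor, by 0.38. Barrier transporters and junction genes had a median of 0.036 over 17 of 20 genes, again with none at that p, with Cgn, the junction protein cingulin, at 0.77 and Abcg2, an efflux pump, at 0.38.

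The signalling partners of the members were next. Of the genes of VEGF and angiopoietin signalling 16 of 18 were tested, with a median of -0.029, which turned to 0.11 with median scaling. At an unadjusted p under 0.05, 0 were higher and 1 was lower, beside 2.5% higher and 2.8% lower among all genes. The 1 gene was Plxnd1, an endothelial semaphorin receptor, at -0.38 ± 0.32 in CKO and 0.14 ± 0.20 in WT (SD, n = 4 each), a difference of -0.52. Sema3e, the ligand of Plxnd1, differed by 0.37. In PDGF signalling 4 of 5 genes were tested with 0 at that p, a median of -0.15, Pdgfa at 0.24 and Pdgfc at -0.25, and the median turned to 0.080 with quantile normalization and 0.041 within slide 2. The partners of vitronectin, chiefly integrins, had a median of -0.11 over 6 of 8 genes, with 0 at that p and the integrin subunit Itgb5 at 0.77, and its median turned to 0.031 with median scaling.

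The wall of the vessel gave similar counts. Other pericyte markers had a median of -0.12 over 14 of 16 genes, with 0 higher and 0 lower at an unadjusted p under 0.05, Foxs1 at -0.23 and Tbx18 at -0.40. That median was 0.027 with median scaling, -0.015 with the slide as a block and 0.089 within slide 3. Smooth muscle genes had -0.16 over 7 of 8 with 0 at that p, Cnn1 (calponin) at -0.26 and Myh11 at -0.21 (median -0.017 with median scaling and -0.015 within slide 3), and vascular fibroblast genes 0.026 over 9 of 9 with 0 at that p, Col3a1 at -0.17 and Col1a2 at 0.19. Of 11 basement membrane genes 1 was higher and 1 lower at that p, with a median of 0.051. Sparc, a matricellular protein, was at 2.48, 2.37, 2.29 and 1.80 in CKO 1 to 4 and 1.72, 1.59, 1.49 and 1.64 in WT 1 to 4. All CKO values lay above all WT values, where 3.32% of all genes had groups that did not overlap, with a difference of 0.62 (SE 0.18, limma adjusted p = 0.724). Nid2, the basement membrane protein nidogen 2, differed by -0.59. Among paralogs of the members 2 of 10 tested were higher and 0 lower, Cldn12 (a claudin) at 0.49 and Rgs4 (an RGS protein) at 0.40, beside 2.5% higher and 2.8% lower among all genes, with a median of 0.16.

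Markers of other cells were read beside the vessel genes on the same scale. The microglial list had a median of 0.24 over 11 of 12 genes, with 2 higher at an unadjusted p under 0.05, among them Tyrobp at 0.56. Its summed signal, in units of the array's 75th percentile, was 76.4 to 106 in CKO and 65.8 to 88.1 in WT. Astrocyte genes had 0.24 over 10 of 12, 2 of them higher (Mlc1 at 0.71 and Aldoc at 0.48), with summed signal from 30.6 to 41.7 in CKO and 28.3 to 31.0 in WT. Oligodendrocyte genes had 0.18 over 11 of 12, 2 of them higher (Mal at 0.68 and Mag at 0.54), with summed signal from 43.2 to 47.9 in CKO and 40.1 to 54.2 in WT. Blood genes had 0.020 over 6 of 7 with 0 at that p (Slc4a1 at -0.32, Ahsp at -0.42). Beside these counts 2.5% of all genes were higher and 2.8% lower at that p. The medians within slide 2 and within slide 3 were 0.59 and 0.12 for microglia, 0.49 and 0.021 for astrocytes, 0.29 and 0.43 for oligodendrocytes and -0.17 and 0.42 for blood. A sum is carried by the brightest genes of a list. The median log2 signal of the microglial genes on an array was -0.80 to -0.55 in CKO and -1.54 to -1.06 in WT, without overlap. For astrocytes it was 0.052 to 0.85 in CKO and 0.12 to 0.60 in WT, with overlap. For oligodendrocytes it was -0.87 to -0.22 in CKO and -1.14 to -0.12 in WT, with overlap.

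The excitatory neuron list had a median of 0.11 over 12 of 12 genes, with 0 at an unadjusted p under 0.05, Prox1 at -0.41 and Nrgn at 0.59. Interneuron genes had a median of 0.12 over 9 of 10, with Npy at 0.37. Of these 1, Pvalb, was higher at that p (0.55), beside 2.5% higher and 2.8% lower among all genes. The excitatory median was -0.014 with quantile normalization and 0.26 with median scaling, and the interneuron median was -0.13 within slide 3. The summed signal of the 7 endothelial members was 2.25 to 3.37 in CKO and 2.41 to 3.38 in WT, and that of Rgs5 and Vtn was 0.35 to 0.51 in CKO and 0.27 to 0.63 in WT. Both ranges of the members overlapped almost fully between genotypes. The brighter Kdr probe gave the highest signal of the 7 on every array. The median log2 signal of the 7 was -1.96 to -1.28 in CKO and -2.05 to -1.56 in WT. Whether RNA of glia or blood has a part in the values of Itm2a, Sparc or Pecam1 was not tested.

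**Figure D4:**
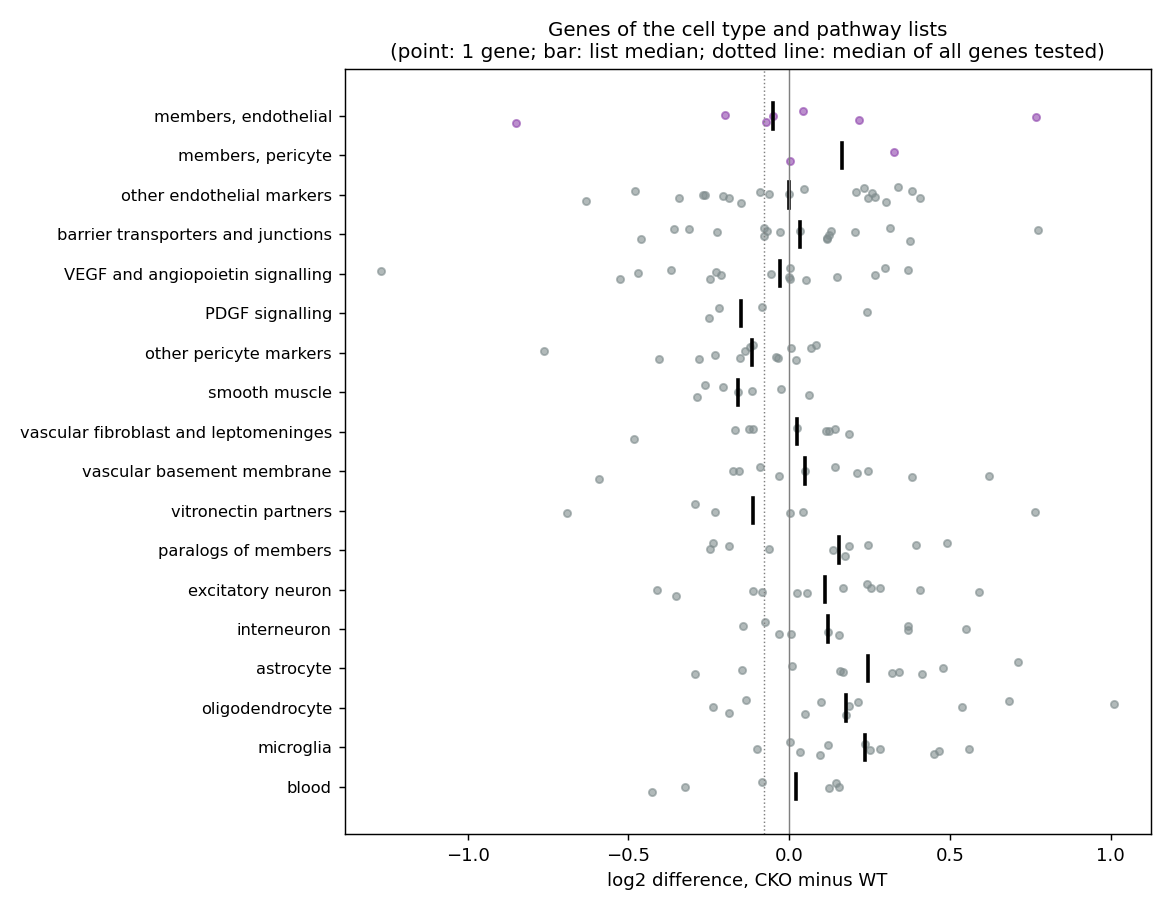
Log2 difference, CKO minus WT (x axis), of every tested gene of the members (purple) and of the 16 further lists (grey), 1 point per gene and 1 row per list, with the list median as a black bar and the median of all genes tested, -0.078, as a dotted line. The medians of the vessel lists lie between -0.16 and 0.16, and those of the microglia and astrocyte lists both at 0.24.

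Genes with the most similar course over the 8 arrays were found by the root mean square difference between profiles centred on their mean, over 16722 named genes that were measured above background in all 8 mice. Closest to Pecam1 were A1cf, Fthl17-ps1 and Gm2093, with A1cf at a difference of 0.16 where Pecam1 itself deviated by 0.64 from its mean. Closest to Itm2a were Mrps16, Pdcd2l and Rer1, with Mrps16 at 0.15 against a spread of 0.56. No other member was among the 3 closest genes of any member. For the rest the closest gene was Rgs11 for Cldn5, Pbxip1 for Flt1, Ifnl3 for Kdr, Myrf for Tek, Tjp3 for Slco1a4, Foxred2 for Rgs5 and Zbtb40 for Vtn, at 0.042 (Kdr) to 0.21 (Rgs5). These are descriptions over 8 arrays that share slides.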

How the data were processed

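Hippocampal RNA recovered with anti-HA antibody was amplified with a whole transcriptome kit and labelled with Cy5, per the labels. Per the file headers the deposited intensity is Agilent Feature Extraction's background-subtracted, detrended red signal with surrogates near 0 (version 11.5 per the submitters' processing notes), and coordinates are mm9. The authors' deposited value table, a linear intensity with blanks, states neither centring nor normalization. Its medians were 1507, 1362, 1987 and 1561 for CKO 1 to 4 and 1309, 1313, 1263 and 1645 for WT 1 to 4. Within each array its ranks followed the processed signal (Spearman 0.9988 to 0.9995).

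Of 62976 spots 59305 were not controls, and none was saturated. Outlier spots were dropped, the log2 values of a probe's spots were averaged, and each array's 75th percentile over 55663 probes was subtracted. A probe was kept if 4 or more of the 8 arrays had it well above background (44316 probes), and the probe with the highest mean stood for a gene, which is the brighter probe of Flt1 and Kdr. Names came from 28324 accessions matched to a GRCm38.p6 table, otherwise from the files. The comparison of CKO with WT used limma 3.58.1 under R 4.3.3 (lmFit, eBayes, two-sided, Benjamini-Hochberg over all 29529 genes). The fit was tested on simulated data. The mice are labelled as biological replicates, and the number of arrays limits precision. Members and lists were chosen with earlier results of these data known. From each further list the text names genes past the threshold or, with none, the 2 with the smallest p among those well above background on all arrays. Alternatives were other scalings, background correction, the authors' values, filters, probe summaries and prior, slide, sex and replicate number as terms, and each array left out. Some genes of the lists are not reported here by name. No input RNA was analysed here.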

Additional observations from a re-analysis of the deposited data

Results flagged for a closer look

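Within groups of 4 mice, 24 sets of values (12 probes in CKO and in WT) were searched for 1 value far from the others, and 2 were found, where chance gives about 1 in 20. Pecam1 had -4.29 in CKO 3, against -3.08 to -2.86 in the other CKO mice. The Pdgfrb probe had -5.47 in WT 1, against -7.77 to -7.52 in the other WT mice, and this probe was not well above background on any array.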

How the results depend on the processing

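None of the 9 members passed an adjusted p of 0.05 in any of 23 alternatives. Pecam1 was lower in all of them (-1.02 to -0.35, smallest adjusted p 0.363) and Itm2a higher (0.40 to 1.02, 0.363). Directions turned within slide 3 for Cldn5 (-0.18), Slco1a4 (0.012), Vtn (-0.47) and Rgs5 (-1.05), with the mean of a gene's probes for Kdr (0.073), and for Rgs5 with the slide as a block, fixed (-0.18) or random (-0.087). Tek turned to 0.073 with median scaling, 0.014 with quantile normalization, 0.0068 with normexp and quantile normalization and 0.12 with the authors' values, and Slco1a4 to 0.092, 0.049 and 0.093 with median scaling, quantile normalization and the authors' values. With single arrays left out Cldn5 ran from 0.046 to 0.40, Kdr from -0.36 to -0.031, Vtn from 0.17 to 0.48, Flt1 from -0.051 to 0.14, Tek from -0.14 to 0.025, Slco1a4 from -0.18 to 0.15, Rgs5 from -0.18 to 0.29, the endothelial median from -0.13 to 0.14 and the pericyte median from -0.0031 to 0.39. The pericyte median was 0.65 within slide 2 and -0.76 within slide 3. The cause of these turns was not tested. Median scaling moved the median of all genes to 0.065, against -0.078. At an unadjusted p under 0.05, 737 genes were higher and 828 lower, 891 and 542 with median scaling, 759 and 512 with quantile normalization, 889 and 535 with normexp, and 1047 and 331 with the authors' values.

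Genes past the threshold numbered 0 higher and 1 lower. Higher counts were 3 with normexp, 5 with probes well above background on all arrays, 4 with a trended prior, 8 with the slide as a random block, 2 with sex and 1 within slide 3. Lower counts were 2 without a filter, 5 with the random block and 0 with quantile normalization, the authors' values, probes above background on all arrays, each probe, a trended prior, the replicate block and within slide 2 or 3, and 0 to 2 with single arrays left out (0 higher). Members higher at an unadjusted p under 0.05 numbered 0 with the authors' values and within slide 3, and members lower numbered 0 with the replicate block and within slide 2. Within slide 2 the member counted as higher was Vtn and within slide 3 the member counted as lower was Rgs5, since neither Itm2a nor Pecam1 had an unadjusted p under 0.05 within a slide. With single arrays left out each count was 0 to 1: Itm2a lost that p without CKO 1, CKO 3, WT 1, WT 2 or WT 3, and Pecam1 without CKO 3, WT 1, WT 2 or WT 3. The replicate numbers share only a number: same-numbered arrays deviated with correlations of -0.32, 0.39, -0.42 and 0.068, and with the replicate block 0 genes passed the adjusted threshold, with 381 higher and 705 lower at an unadjusted p under 0.05. A trended prior gave 1261 and 599. Pdgfrb alone among the members was not well above background. The size of other differences moved with the background correction. Pecam1 differed by -0.63 with quantile normalization and by -0.35 with normexp and quantile normalization. The dimmer Flt1 probe differed by 1.14 and 0.52.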
